A study of Rattus norvegicus with 8 samples.

Results

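A set of 10 genes that mark T cells and natural killer (NK) cells were followed in rat brain tissue taken after an injection of an inactivated gene transfer vector or of saline. These were Cd3e, Cd3g, Cd2, Cd4, Cd7, Cd8a, Lck, Gzmb, Prf1 and Nkg7. All 10 genes were represented on the array, by 14 of the 31042 probe sets that are not controls. A probe set was taken as a member if the platform annotation gave it 1 of these symbols and no other, whatever its brightness.

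Tissue was from adult male Wistar rats, 48 hours after an injection of 5 µl into the striatum, the input nucleus of the basal ganglia. In 1 group of 4 samples the injection held 50000000 particles of a baculovirus vector that had been made inactive by 1 hour of ultraviolet light at 254 nm. Baculoviruses infect insects and can enter mammalian cells without replicating there. In the other group of 4 samples the injection held only phosphate-buffered saline (PBS), so both groups carry the needle wound. RNA of each sample was hybridised to 1 Affymetrix GeneChip of the rat genome, which reads a gene through 1 or more probe sets, each giving an intensity on a linear scale. The design text speaks of 7 rats with PBS on the opposite side of the brain. Which rat an array came from is not labelled. If all 8 arrays came from those 7 rats, some of the arrays must share an animal. Every p-value here treats the arrays as independent and rests on the spread between arrays rather than between animals.

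T cells recognise peptides through a receptor that signals via the CD3 chains, with CD4 or CD8 as co-receptor and the kinase Lck as the first relay. Cytotoxic T cells and NK cells kill by releasing perforin, which opens the target's membrane, and granzymes, which enter and start its death. Healthy brain tissue holds few of either cell, and both can enter it after injury or infection. In bulk tissue, fewer cells of a type and less RNA per cell cannot be told apart.

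Brain genes were bright on these arrays. All 14 brain and striatal genes on the array lay above the 40th percentile of probe sets, an intensity of 26.4, with a median of 696, and were led by Mbp (myelin basic protein), Snap25 and Gfap. Their means were higher after inactivated baculovirus for 5 and lower for 9. As a guide to the intensity read where little or no RNA is present, 63 genes of liver, pancreas, testis, muscle, skin and other organs had a median intensity of 9.25 and quartiles of 4.06 and 20.9. This guide is imperfect, since 12 of the 63 lay above the 40th percentile, led by the muscle myosin Myh1 at 955. Of the 63, 41 had a higher and 22 a lower mean after inactivated baculovirus. No gene of either list passed the adjusted threshold in limma, and at an unadjusted p under 0.05 the brain list had 0 higher and 1 lower and the organ list 2 higher and 1 lower. Over all probe sets, 56.1% had a higher mean and 6.19% were under that p in either direction. Probe sets differ in how strongly they bind, so a brightness places the reading of a probe set and not the abundance of its gene.

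Of the 14 T and NK cell probe sets, 11 lay below the 40th percentile, and these covered 7 of the 10 genes. The organ guide reads each gene by its brightest probe set, whereas all 14 member probe sets are counted here. Measured against it, 9 of the 14 lay within its quartiles, 2 below (the dimmest Cd8a and the dimmer Gzmb probe set) and 3 above. The 3 above were the single probe sets for Lck, Cd4 and Cd7, at the 60.7th, 42.1st and 40.6th percentile. A description as near background thus holds barely for Cd4 and Cd7 and not for Lck. For the others it holds in that they lay within or below the guide's quartiles. Read by their brightest probe sets, the 10 member genes had a median of 16.4 and quartiles of 13.1 and 24.7. Each of these values was above that of the guide (9.25, 4.06 and 20.9). The median position of the 14 was the 24.8th percentile of all probe sets, and the dimmest lay at the 4.51st. No reading was at 0.

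No member passed the test between the groups. In limma, adjusted over all 31042 probe sets with the Benjamini-Hochberg method, 0 of 14 passed 0.05, where 0% of all probe sets did. Unadjusted, 0 of 14 were under a p of 0.05, where 6.19% of all probe sets were. The methods' t-test also gave 0 members after adjustment, and 1 unadjusted, where 5.97% of all probe sets were. Still, 13 of the 14 members had a higher mean after inactivated baculovirus and 1 a lower one, where 56.1% of all probe sets and 59.7% of those at or below the 40th percentile were higher. The median log2 fold change was 0.18 over the members, 0.02 over all probe sets and 0.03 over the dim ones. Unless another pseudocount is named, fold changes are on the scale of log2(intensity + 16), so the change of a dim probe set is understated. Members of 1 gene are not independent readings, and this list was chosen with results of these data known.

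**Figure D1:**
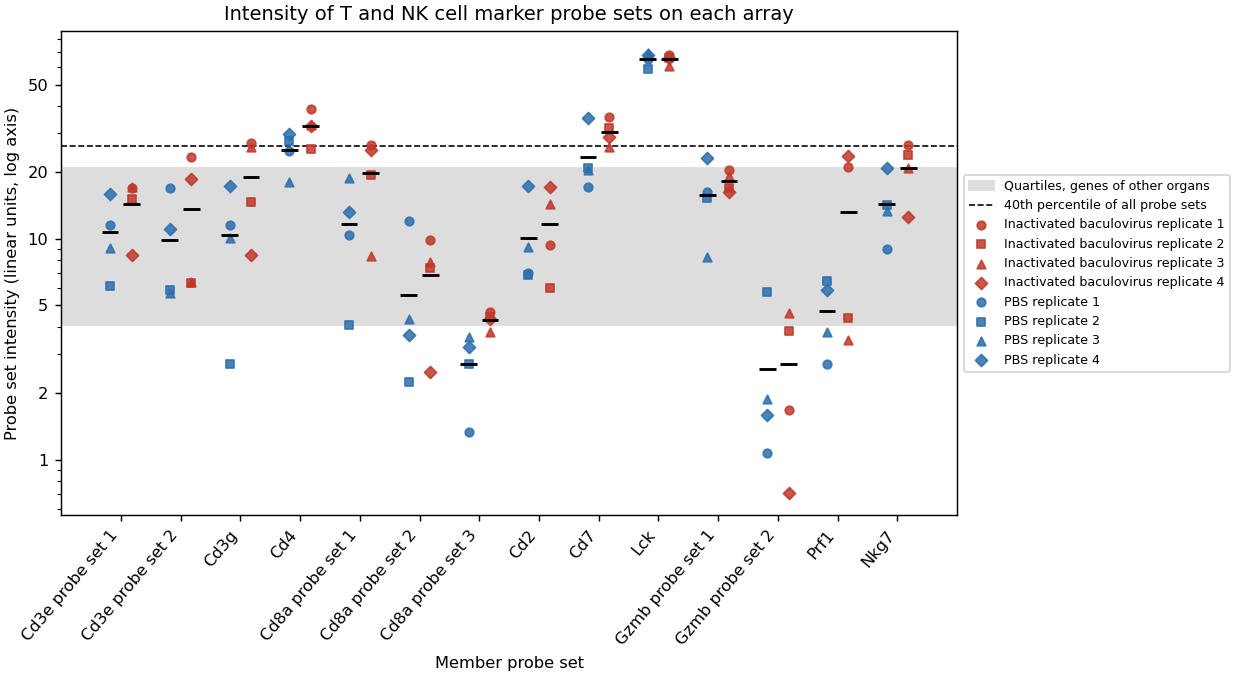
Intensity (linear units on a log axis) of each of the 14 member probe sets on each of the 8 arrays, red for inactivated baculovirus and blue for PBS, with a marker shape per replicate number and black bars at the group means. The grey band spans the quartiles of the organ guide (4.06 to 20.9) and the dashed line is the 40th percentile (26.4); most points lie in or under the band, while Lck stands above both on all arrays.

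The CD3 chains carry the signal of the T cell receptor and are the strictest T cell markers of the list. The first Cd3e probe set, for the epsilon chain, read 17.0, 15.1, 17.2 and 8.44 on inactivated baculovirus replicates 1 to 4 and 11.6, 6.11, 9.11 and 16.0 on PBS replicates 1 to 4. Baculovirus replicate 4 was the lowest of its group and PBS replicate 4 the highest of its own, so the groups overlapped. The log2 fold change was 0.19 ± 0.14 (SE) and its 95% limits were -0.12 and 0.50 (limma adjusted p = 0.849). The second Cd3e probe set read 23.4, 6.32, 6.38 and 18.7 after baculovirus and 17.0, 5.84, 5.69 and 11.1 after PBS. Here replicates 1 and 4 were the high ones in both groups. Baculovirus replicate 4 was thus the lowest of its group on the first probe set and among the high ones on the second, although both read the same gene. For the second one the difference was 0.17 ± 0.21 (limma adjusted p = 0.915). Leaving out 1 array gave 0.10 to 0.29 for the first probe set and 0.02, without baculovirus replicate 1, to 0.30, without PBS replicate 1, for the second.

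Cd3g, for the gamma chain, read 27.0, 14.7, 26.1 and 8.43 after inactivated baculovirus and 11.6, 2.71, 10.1 and 17.4 after PBS. Baculovirus replicates 1 and 3 lay above every PBS array, whereas replicate 4 lay below all PBS arrays but replicate 2. The group means were 19.1 ± 9.03 and 10.4 ± 6.04 (SD, n = 4 each), a log2 fold change of 0.40 with a 95% interval of -0.07 to 0.86 (limma adjusted p = 0.825). With 1 array left out the value lay between 0.24, without PBS replicate 2, and 0.56, without baculovirus replicate 4.

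The co-receptors CD4 and CD8 bind the class II and class I molecules that present peptides. Cd4 read 38.6, 25.5, 32.9 and 32.5 after inactivated baculovirus and 24.9, 27.7, 18.2 and 29.7 after PBS. Baculovirus replicates 1, 3 and 4 lay above all PBS arrays, and replicate 2 lay among the PBS arrays. The log2 fold change was 0.24 ± 0.13 (SE) and its 95% limits were -0.06 and 0.53 (limma adjusted p = 0.832). Without PBS replicate 3 it was 0.15, and it reached 0.31 without baculovirus replicate 2. In the rat, macrophages and microglia also carry CD4, so this gene alone does not mark T cells. On the same arrays, the mean of 17 of 20 microglia and macrophage markers was higher after baculovirus and that of 3 lower, where 56.1% of all probe sets were higher. In limma 0 of these markers passed the adjusted threshold and 2 were higher at an unadjusted p under 0.05, where 6.19% of all probe sets were under it in either direction. The summed intensity of these markers ran from 3791 to 5489 after baculovirus and from 3275 to 4918 after PBS. The part of these cells in the Cd4 reading was not tested.

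Cd8a, for the alpha chain of CD8, had 3 probe sets. The brightest read 26.7, 19.4, 8.37 and 25.2 after inactivated baculovirus and 10.4, 4.06, 18.8 and 13.2 after PBS. Baculovirus replicates 1, 2 and 4 lay above all PBS arrays and replicate 3 lay below all but PBS replicate 2. The log2 fold change was 0.37 ± 0.20 (SE, limma adjusted p = 0.829). It lay between 0.23, without PBS replicate 2, and 0.55, without baculovirus replicate 3, when 1 array was left out.

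The next Cd8a probe set read 9.89, 7.37, 7.81 and 2.49 after baculovirus and 12.04, 2.25, 4.33 and 3.65 after PBS, with its lowest baculovirus reading on replicate 4 and its highest reading of all on PBS replicate 1. The dimmest Cd8a probe set read 4.64, 4.43, 3.80 and 4.32 after baculovirus and 1.34, 2.70, 3.60 and 3.24 after PBS. It was the 1 member of 14 whose groups did not overlap, with all baculovirus arrays higher, where 1.68% of all probe sets and 1.88% of the dim ones were separated in that direction. It sat at the 6.91st percentile, and the gap between the groups was 3.80 against 3.60. The differences of these probe sets were 0.10 ± 0.14 and 0.12 ± 0.07 on the log2 scale (SE, limma adjusted p = 0.940 and 0.839). The first of these values ran from 0.02 without PBS replicate 2 to 0.23 without PBS replicate 1. The order of the arrays was not shared by the 3 probe sets.

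CD2 and CD7 are surface proteins of T and NK cells that act in adhesion and costimulation. Cd2 read 9.37, 5.98, 14.3 and 17.3 after inactivated baculovirus and 7.04, 6.83, 9.18 and 17.4 after PBS, with replicate 4 highest in both groups. The groups overlapped throughout, and the difference on the log2 scale was 0.09 (95% limits -0.26 and 0.44, limma adjusted p = 0.952). Without baculovirus replicate 4 the sign turned, to -0.0072, and without PBS replicate 4 it was 0.21. Cd7 read 35.6, 31.7, 26.1 and 28.9 after baculovirus and 17.2, 20.9, 20.6 and 35.2 after PBS. Every baculovirus array lay above PBS replicates 1 to 3, and PBS replicate 4 stood level with the highest of them. The log2 fold change of Cd7 was 0.26 ± 0.15 (SE, limma adjusted p = 0.837), and it lay between 0.18, without PBS replicate 1, and 0.39, without PBS replicate 4 (limma adjusted p = 0.452), when 1 array was left out. That p was the lowest adjusted p of any member under any setting tried.

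Lck, the kinase that starts signalling at the T cell receptor, gave nearly the same reading on every array. It read 68.0, 65.6, 60.9 and 65.7 after inactivated baculovirus and 65.4, 58.5, 69.3 and 67.9 after PBS. Group means were 65.0 ± 2.97 and 65.3 ± 4.78 (SD, n = 4 each). On the log2 scale the difference was -0.0029 (95% interval -0.20 to 0.20, limma adjusted p = 0.998), and its sign turned in 4 of the settings tried. The lowest Lck reading after baculovirus was on replicate 3, where Cd3g and the first Cd3e probe set were high. Which cells of the tissue gave the Lck reading was not tested.

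Among the genes of cytotoxic granules, Prf1, which encodes perforin, had the largest ratio of group means among the members. It read 21.1, 4.39, 3.49 and 23.8 after inactivated baculovirus and 2.71, 6.42, 3.79 and 5.88 after PBS. The baculovirus arrays split, with replicates 1 and 4 above all PBS arrays and replicates 2 and 3 within the PBS range. The means of 13.2 ± 10.7 and 4.70 ± 1.74 (SD, n = 4 each) had a ratio of 2.81, and the difference on the log2 scale was 0.42 (95% limits -0.06 and 0.91, limma adjusted p = 0.824). It was lowest without baculovirus replicate 4, at 0.25, and highest without baculovirus replicate 3, at 0.59, among the fits with 1 array left out. Baculovirus replicates 1 and 4 were also the high arrays of that group for the second Cd3e and the brightest Cd8a probe set. They were not for Cd3g or Nkg7, for which replicate 4 was the lowest baculovirus array.

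Gzmb, which encodes granzyme B, read 20.4, 17.0, 19.3 and 16.4 after inactivated baculovirus and 16.3, 15.4, 8.23 and 23.3 after PBS on its brighter probe set. All baculovirus readings lay within the PBS range, and the log2 fold change was 0.13 ± 0.14 (SE, limma adjusted p = 0.910). It was 0.0036 without PBS replicate 3 and 0.24 without PBS replicate 4. The dimmer Gzmb probe set read between 0.705 and 4.61 after baculovirus and between 1.07 and 5.75 after PBS, and its difference of 0.01 had no stable sign. A further probe set that the annotation gives to Gzmb and a second gene was no member and was as dim, between 0.893 and 3.57 after baculovirus and between 0.888 and 5.11 after PBS. Nkg7, a membrane protein of cytotoxic granules, read 26.5, 24.0, 20.9 and 12.6 after baculovirus and 9.03, 14.3, 13.4 and 20.9 after PBS. Baculovirus replicates 1 and 2 lay above all PBS arrays, replicate 3 lay just under PBS replicate 4, and replicate 4 lay among the PBS arrays. The difference on the log2 scale was 0.28 (95% limits -0.06 and 0.63, limma adjusted p = 0.832).

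**Figure D2:**
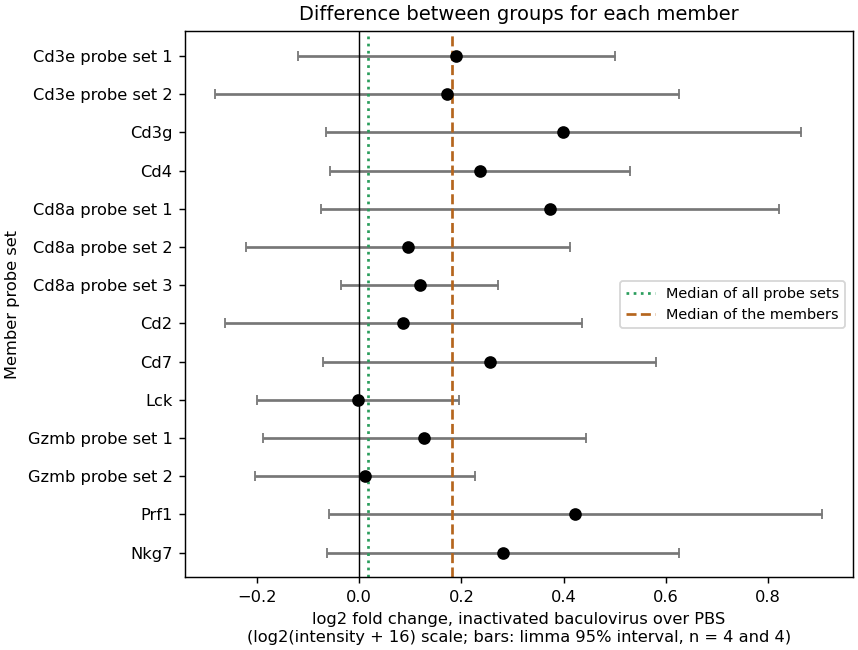
Log2 fold change of each member probe set, inactivated baculovirus over PBS, with limma 95% intervals (4 arrays in each group), on the log2(intensity + 16) scale. All 14 intervals include 0, and the members' median of 0.18 (dashed) lies to the right of the median of all probe sets at 0.02 (dotted).

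The 95% intervals reached 0.32 to either side for the median member on the log2 scale, and from 0.15 to 0.48 over the 14, against 0.26 for the median of all probe sets. The highest upper limit was 0.91, for Prf1. By ratio of mean intensities, 4 of 14 members were higher by 1.5-fold or more (Cd3g, the brightest and the dimmest Cd8a probe set, and Prf1), where 5.23% of all probe sets and 12.6% of those at or below the 40th percentile were.

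Readings of the members were highest on 1 array of each group. Inactivated baculovirus replicate 1 was the highest of its group for 10 of the 14 probe sets and the lowest for 0, and PBS replicate 4 was the highest of its group for 7 and the lowest for 0. PBS replicates 1, 2 and 3 lay above a probe set's median over the 8 arrays for 2, 2 and 3 of the 14, and PBS replicate 4 did so for 10. Baculovirus replicates 1 to 4 did so for 13, 9, 9 and 8. PBS replicate 4 thus read like the baculovirus arrays for these markers, and their summed intensity was 267 on it, 179 to 207 on the other PBS arrays and 245 to 330 on the baculovirus arrays. Without PBS replicate 4, 3 of 14 members were under an unadjusted p of 0.05 and 0 under an adjusted one in limma, where 9.10% of all probe sets were under the unadjusted one. Without baculovirus replicate 1, 13 of 14 still had a higher mean, where 56.3% of all probe sets did. The median was then 0.14 over the members and 0.02 over all probe sets. Under an unadjusted p of 0.05 in limma were 0 members and 6.39% of all probe sets.

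The dim end of the arrays moved in part with these readings. The 25th percentile of all probe sets was 11.4 on PBS replicate 1, 13.2 to 13.4 on PBS replicates 2 and 3, 14.8 on PBS replicate 4 and 13.5 to 14.9 on the baculovirus arrays. Of the 12417 dim probe sets, 31.4% lay above their own median on PBS replicate 1 and 61.1% on PBS replicate 4, against 47.5% to 61.9% on the baculovirus arrays. The median of the organ guide was 6.65 to 10.9 on PBS arrays and 8.51 to 10.6 on baculovirus arrays. With quantile normalization, which gives all arrays the same distribution, 12 of 14 members had a higher mean, where 51.2% of all probe sets did. The median log2 fold change was then 0.13 over the members and 0.0033 over all probe sets. The part of the dim end in the members' differences was not tested.

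**Figure D3:**
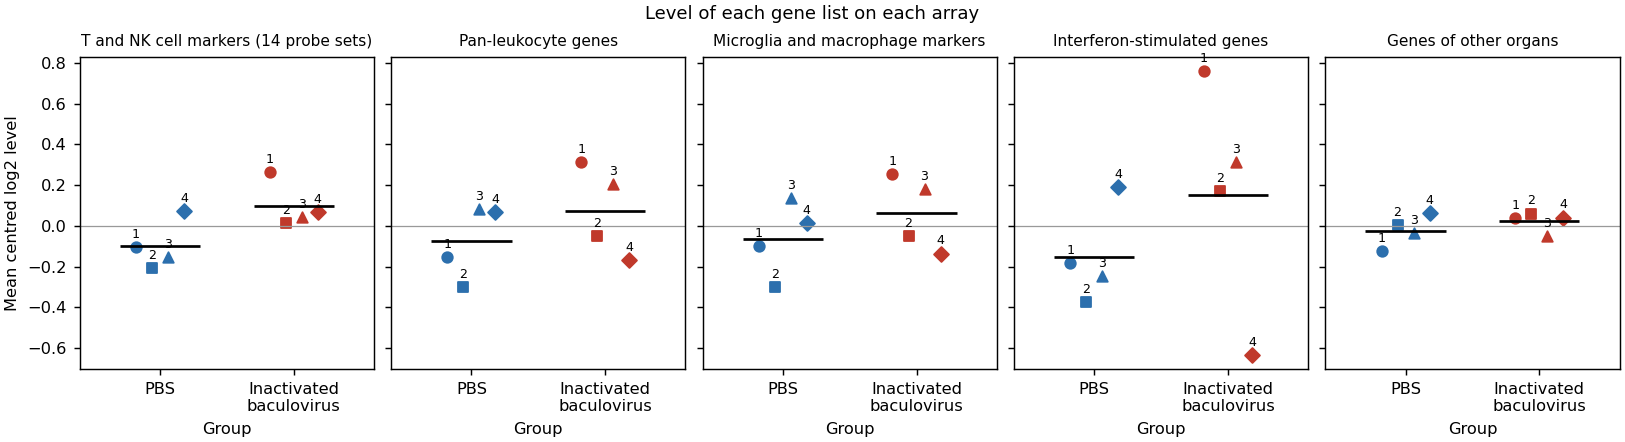
Mean centred log2 level of the 14 member probe sets and of 4 gene lists on each array, by group, with replicate numbers beside the points and black bars at the group means. For the members, inactivated baculovirus replicate 1 is highest at 0.27 and PBS replicate 4, at 0.07, lies level with baculovirus replicate 4; the interferon-stimulated list spreads far more, from -0.63 to 0.76 within the baculovirus group.

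Other genes of T and NK cells, from the receptor's zeta chain to granzymes, NK receptors and lineage transcription factors, gave 51 genes on the array, each read by its brightest probe set. Of these, 12 lay above the 40th percentile, 39 had a higher mean after inactivated baculovirus and 12 a lower one, with a median log2 fold change of 0.08. In limma 0 passed the adjusted threshold, and 4 were higher and 0 lower at an unadjusted p under 0.05. Of all probe sets, 56.1% had a higher mean and 6.19% were under that p, 918 of them higher and 1003 lower. The brightest of the 51 genes were Thy1 at 1218, which neurons carry as well, the transcription factor Lef1 at 89.6 and the T cell receptor kinase Zap70 at 44.0. The smallest p among them belonged to Gata3, a transcription factor of helper T cells and of other lineages. It measured 17.5 ± 2.41 against 10.2 ± 1.77 (SD, n = 4 each, limma adjusted p = 0.764). It was followed by the protease gene Ctsw and the leukocyte surface gene Cd52, each at a mean under 10 in both groups (limma adjusted p = 0.785 and 0.794). The groups of Gata3, Ctsw and Cd52 did not overlap, with baculovirus higher. These genes were picked for the smallest p in these data, which favours separated groups, so their separation is no further support. Without such a pick, 1.68% of all probe sets and 1.88% of the dim ones were separated in that direction. Summed over the 51 genes, the intensity ran from 1918 to 2182 after baculovirus and from 1742 to 2167 after PBS.

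Genes shared by all leukocytes were brighter, with 9 of 11 above the 40th percentile and a median intensity of 133. Means were higher after inactivated baculovirus for 10 of the 11 and lower for 1, with 0 past the adjusted threshold and 2 higher at an unadjusted p under 0.05 in limma. The shares over all probe sets were 56.1% with a higher mean and 6.19% under that p in either direction. Coro1a, an actin-binding protein of leukocytes that brain tissue also expresses, measured 454 ± 24.2 against 383 ± 41.4 (SD, n = 4 each), a log2 fold change of 0.24 ± 0.08 (SE, limma adjusted p = 0.764). Microglia carry most of these genes too. Over the arrays, pan-leukocyte and microglia levels were both highest on baculovirus replicate 1 and lowest on PBS replicate 2, as was the members' level. On baculovirus replicate 4 both of these lists were below their mean, at -0.17 and -0.14, while the members stood at 0.07.

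Most markers of other blood cells were dim too. B cell markers had 2 of 6 genes above the 40th percentile, with 4 higher and 2 lower, and neutrophil markers 1 of 9, with 7 higher and 2 lower. Red cell markers had 1 of 5 above it, with 3 higher and 2 lower. That gene, Hbb, for beta globin, varied within both groups, at 331 ± 316 against 178 ± 209 (SD, n = 4 each). The summed red cell intensity ran from 117 to 800 after inactivated baculovirus and from 87.6 to 554 after PBS. The red cell level was 0.58 on baculovirus replicate 4 and 0.43 on PBS replicate 4, and -0.30 on baculovirus replicate 1. For 10 of the 14 T and NK cell probe sets, that last array was the highest of the baculovirus group. No gene of these 3 lists passed the adjusted threshold in limma, and 1, Slc4a1, was lower at an unadjusted p under 0.05. For all probe sets, the shares were 56.1% with a higher mean and 6.19% under that p in either direction.

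**Figure D4:**
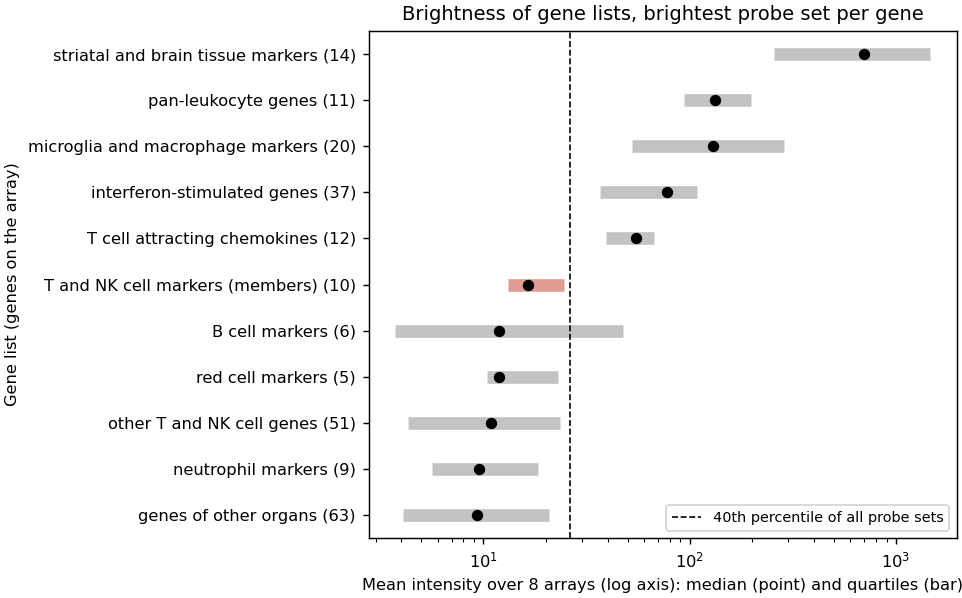
Mean intensity over the 8 arrays (log axis) of the members and the other gene lists, as the median (point) and quartiles (bar) over genes, with the brightest probe set per gene and the number of genes in parentheses. The T and NK cell markers (red) have a median of 16.4, under the 40th percentile (dashed) together with B cell, red cell, neutrophil and organ lists, while leukocyte and microglia lists lie above it.

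Chemokines that attract T cells were measured well above the dim end, with 11 of 12 over the 40th percentile. Means were higher after inactivated baculovirus for 9 and lower for 3, with a median log2 fold change of 0.24, 0 past the adjusted threshold and 1 higher at an unadjusted p under 0.05 in limma. Cx3cl1, the fractalkine of neurons, measured 641 ± 34.9 against 628 ± 80.3 and Cxcl16 86.4 ± 26.4 against 67.1 ± 23.7 (SD, n = 4 each). The chemokine level was 0.51 on baculovirus replicate 1 and -0.36 on replicate 4. Interferon-stimulated genes ran the same way, at 0.76 and -0.63. Their means were higher for 36 of 37 and lower for 1, with 0 past the adjusted threshold and 4 higher at an unadjusted p under 0.05 in limma. Beside both lists, 56.1% of all probe sets had a higher mean and 6.19% were under that p in either direction. The members' levels on baculovirus replicates 1 and 4 were 0.27 and 0.07, so the lowest array for both lists was not the lowest baculovirus array for the T and NK cell markers. The beta-actin difference between 3' and 5' probe sets, a measure of RNA quality and labelling, was smallest on baculovirus replicate 1 and largest on replicate 4, at 0.36 and 0.72 on the log2 scale. It was 0.50 ± 0.16 over the baculovirus arrays and 0.52 ± 0.10 over the PBS arrays (SD, n = 4 each). With this difference as a covariate, 13 of 14 members still had a higher mean, where 56.1% of all probe sets did. In that limma fit 0 members passed the adjusted threshold. Cd3g alone was under an unadjusted p of 0.05, where 6.51% of all probe sets were.

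The likeness of members was read only where both probe sets lay above the 40th percentile, which left 3 pairs over the 8 arrays. Pearson's r of the log2 levels was 0.63 for Cd4 and Cd7, 0.34 for Cd7 and Lck, and -0.19 for Cd4 and Lck. These arrays share a scaling and the group difference, and the values describe these 8 arrays only.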

How the data were processed

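The deposited table holds linear intensities of 8 arrays. Per the submitters' processing notes the tools were GCOS and GCRMA; the step that made the intensities is not stated there. Each array had been scaled to a common level, since the mean without the top and bottom 2% of values was between 100.021 and 100.023. No detection calls were used. Of 31099 probe sets, 57 controls were left out. In the platform annotation 20826 of the rest have 1 symbol, 436 have several and 9780 have none. The gene numbers of all 14 member probe sets were found in a RefSeq table, and 0 symbols changed. Coordinates are left out because no genome build accompanies the table.

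Intensities were used as deposited, as log2(intensity + 16), with no filter on brightness. The test was limma 3.58.1 (R 4.3.3), with lmFit and eBayes, an intensity trend in the variance, both sides and no block; p-values were adjusted over all probe sets, and intervals are 95% limits. The code was tested on simulated data. Precision is limited by the number of arrays. The level of a list is the mean per array of log2 values centred on each probe set's mean. The members and lists were chosen with earlier results of these data known, and lists are described with counts and medians only. All members are named; from each other list the rule took the 3 brightest genes and any past the adjusted threshold, and from other T and NK cell genes the 3 with the smallest p. Not every gene the rule took is printed. Alternatives were pseudocounts, normalizations, brightness filters, variance settings, the methods' t-test (equal variances), the replicate number as a block, an actin covariate, averaged probe sets per gene and leaving out each array.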

Additional observations from a re-analysis of the deposited data

How the results depend on the processing

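No member passed an adjusted p of 0.05 under any of the 20 alternatives, whose adjusted p ran from 0.452 upwards. The members with a higher mean numbered 12 to 14 of 14 in every alternative that kept all 14. There, 46.5% (median centring) to 58.0% (without PBS replicate 4) of all probe sets were higher. When probe sets were averaged per gene, 9 of 10 members were higher, where 59.2% of all genes were. With a filter at the 40th percentile only 3 members were left, of which 2 were higher, where 53.7% of the probe sets kept were. At the 60th percentile only Lck was left, with 0 higher and a value of -0.0029, where 50.8% of those kept were higher. The median log2 fold change of 0.18 became 0.39 with a pseudocount of 1, 0.07 with one of 64 and, leaving out 1 array, lay between 0.12 and 0.26. The count under an unadjusted p of 0.05, 0 in the main setting, was 1 with the beta-actin covariate and 1 with the methods' t-test, and, leaving out 1 array, between 0 and 3. It was 1 without baculovirus replicate 2 (Prf1), 2 without baculovirus replicate 3 (Prf1 and a Cd8a probe set), 2 without baculovirus replicate 4 (Nkg7 and Cd3g), 1 without PBS replicate 3 (a Cd8a probe set) and 3 without PBS replicate 4 (Nkg7, Cd3g and Cd7). The shares of all probe sets under that p were 6.51% with the covariate, 5.97% with the methods' t-test and, in the order of the arrays just named, 4.12%, 5.62%, 5.83%, 4.67% and 9.10%.

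Signs turned only for 3 probe sets, all close to 0. The dimmer Gzmb probe set, at 0.01, was at -0.0069 with quantile normalization, -0.017 with median centring, and between -0.037 and 0.090 leaving out 1 array (-0.018 and -0.037 without baculovirus replicates 2 and 3, and -0.027, -0.0044 and -0.012 without PBS replicates 1, 3 and 4). Lck, at -0.0029, was at 0.0095 with array weights, between -0.044 and 0.022 leaving out 1 array, and at 0.022, 0.021 and 0.013 without baculovirus replicate 3, PBS replicate 3 or PBS replicate 4. Cd2, at 0.09, was at -0.0072 without baculovirus replicate 4 and up to 0.21 without another array. The causes were not tested. With the replicate number as a block, 13 of 14 members were higher with a median of 0.18 and 0 under either threshold. Of all probe sets, 56.1% were then higher and 5.81% under the unadjusted threshold. Same-numbered arrays of the groups correlated at 0.00095 to 0.02 after group means were removed, and the other pairs at -0.074 to 0.064. These values gave no sign of a pairing by number. They cannot exclude that such arrays share an animal, since the rat of each array is not labelled. Over all probe sets, 918 were higher and 1003 lower at an unadjusted p under 0.05, against 590 and 1422 with median centring and 751 and 1243 with quantile normalization. Low brightness limits 11 of the 14 readings.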
